A study of Mus musculus with 12 samples.

Results

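Primary T cell acute lymphoblastic leukaemia (T-ALL) of mice with and without the chemokine receptor gene Cxcr4 was compared by RNA sequencing. The comparison set 3 tumours titled Cxcr4-KO Notch1-deltaE+, with the genotype given as Cxcr4-/- (numbers 5, 7 and 8), against 3 labelled Cxcr4+/+ Notch1-deltaE+ (numbers 1, 2 and 4), all of the C57BL/6 strain and 6 of the 12 samples of the study. Notch1-deltaE is a form of Notch1 without most of its extracellular part, and every group carried it, so no tumour here lacks the driving oncogene. The other 6 samples were leukaemia cells treated ex vivo with the CXCR4 blocker AMD3100 or with vehicle. The sources used here do not give how the knockout was made or in which cells, how Notch1-deltaE was introduced, the age of the mice, or whether each tumour came from its own animal, so p-values measure only the spread between these samples. Leukaemia cells came from spleen, and one growth protocol (OP9 stromal cells with IL-7) is listed for every sample, so it is unclear if RNA of the tumours was taken before or after such culture. Of 23174 lines in the tumour table, 10359 were compared, those on autosomes whose FPKM averaged 1 or more across the 6 tumours. FPKM counts fragments relative to transcript length and to the fragments mapped in the library, and so is a level per length.

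CXCR4 is the receptor for CXCL12, a chemokine made by stromal cells of bone marrow and thymus that guides immature lymphocytes to their niches and supports their survival. In the thymus, CXCR4 acts together with Notch1 and the pre-T cell receptor while thymocytes rearrange their receptor genes and pass from the double-negative to the CD4 CD8 double-positive stage. Activated Notch1 drives T-ALL by switching on genes of T lineage entry and growth through the DNA-binding protein RBPJ.

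The promoters of 4 genes of the Notch list are shown because these genes are known Notch targets or partners of Notch in immature T cells and are among those described below. Il2ra, Notch3 and Ptcra had lower means in the knockout tumours, and Il7r a higher one. Each sequence runs from 250 bases before to 50 bases after the start of the gene, 5′ to 3′ on the strand of the gene, from the RefSeq table of build GRCm38.p6, and all 4 genes matched it by symbol. Capitals mark TGGGAA, the core of the RBPJ motif, or its reverse complement TTCCCA. The Il7r promoter lies at chr15:9529827-9530126 (minus strand), that of Il2ra at chr2:11642542-11642841 (plus strand), that of Notch3 at chr17:32166841-32167140 (minus strand) and that of Ptcra at chr17:46763663-46763962 (minus strand).
Il7r: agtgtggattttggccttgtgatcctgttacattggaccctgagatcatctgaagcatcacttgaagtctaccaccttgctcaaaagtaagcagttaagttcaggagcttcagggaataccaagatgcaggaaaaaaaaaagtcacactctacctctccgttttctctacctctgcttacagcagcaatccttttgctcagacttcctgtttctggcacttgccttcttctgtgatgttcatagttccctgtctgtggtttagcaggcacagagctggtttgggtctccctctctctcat
Il2ra: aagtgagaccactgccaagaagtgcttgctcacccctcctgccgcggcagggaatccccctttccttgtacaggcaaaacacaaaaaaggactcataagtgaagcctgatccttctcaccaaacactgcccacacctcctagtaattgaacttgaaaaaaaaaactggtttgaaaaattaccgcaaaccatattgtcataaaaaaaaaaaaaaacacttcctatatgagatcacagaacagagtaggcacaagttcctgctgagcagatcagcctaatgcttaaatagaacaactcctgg
Notch3: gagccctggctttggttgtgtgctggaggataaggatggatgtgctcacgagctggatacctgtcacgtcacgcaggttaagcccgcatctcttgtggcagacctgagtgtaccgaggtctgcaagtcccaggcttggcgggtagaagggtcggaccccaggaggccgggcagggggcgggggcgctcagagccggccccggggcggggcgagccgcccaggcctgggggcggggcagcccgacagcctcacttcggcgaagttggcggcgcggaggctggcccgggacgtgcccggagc
Ptcra: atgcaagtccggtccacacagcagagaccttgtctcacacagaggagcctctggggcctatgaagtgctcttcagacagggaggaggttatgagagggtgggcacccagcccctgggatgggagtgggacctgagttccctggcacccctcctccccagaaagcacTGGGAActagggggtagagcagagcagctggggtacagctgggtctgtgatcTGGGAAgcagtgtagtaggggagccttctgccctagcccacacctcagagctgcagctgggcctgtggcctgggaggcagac
Ptcra held 2 matches and the other 3 promoters held 0. Of 32851 promoters of this length in the table, 25.6% held a match and 3.79% held 2 or more. These matches describe the letters of this window and say nothing about binding, here or farther from the start.

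Genotype and sex cannot be told apart in these tumours. Xist, the RNA that silences one X chromosome in female cells, was at 143, 96.4 and 147 FPKM in wild-type tumours 1, 2 and 4 and at 0.829, 2.80 and 2.69 in knockout tumours 5, 7 and 8. The Y-linked gene Ddx3y was at 0.109, 0.0265 and 0.0304 FPKM in the wild-type tumours and at 23.4, 27.6 and 16.0 in the knockout tumours. Every knockout tumour was thus male by these genes and every wild-type tumour female, which is why X- and Y-linked genes were left out. The tumours also differed in how much of their RNA came from red cell genes. Of all FPKM in a tumour, haemoglobin genes held 1.29%, 5.47% and 22.9% in wild type and 20.4%, 2.76% and 6.55% in knockout. Small RNA entries held 5.10%, 5.59% and 6.01% in wild type and 11.2%, 16.3% and 5.46% in knockout. Neutrophil markers summed to 254, 3546 and 10.0 FPKM in wild type and 85.3, 394 and 193 in knockout. The 16 T cell markers, which include Cd3e, Lck and Bcl11b and check the labelled cell type, were detected in every tumour and summed to 7893, 2049 and 2567 FPKM in wild type against 2609, 5828 and 4239 in knockout. The genotypes overlapped in the haemoglobin share and in the T cell markers (exact permutation p = 0.8 for each, two-sided, where 3 against 3 tumours cannot give less than 0.1). The first principal component (43.4% of the variance) set wild-type tumour 1 and knockout tumours 7 and 8 apart from wild-type tumours 2 and 4 and knockout tumour 5, so it did not follow genotype. Gapdh, a gene of every cell, was at or near 0 in all 6 tumours, so a value of 0 may mark an estimate that failed, and such genes are called listed at 0. In bulk tumours, fewer cells of a type and less RNA per cell cannot be told apart.

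**Figure D1:**
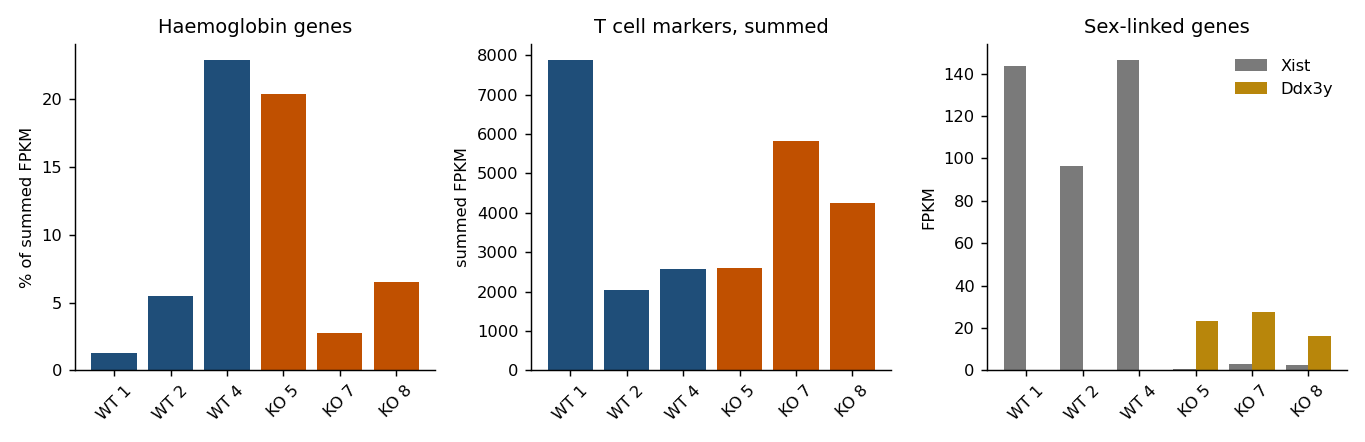
Haemoglobin genes as % of summed FPKM (left), summed FPKM of 16 T cell markers (centre) and FPKM of Xist and Ddx3y (right) in each tumour, one bar per tumour and gene (blue, wild type; orange, knockout; in the right panel grey, Xist and gold, Ddx3y). Haemoglobin and T cell markers vary within each genotype, while Xist is high in the 3 wild-type tumours and Ddx3y in the 3 knockout tumours.

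Cxcr4, the gene named in the labels, was lower in every knockout tumour but not absent. Its level was 241, 155 and 206 FPKM in wild-type tumours 1, 2 and 4 and 23.2, 78.9 and 21.9 FPKM in knockout tumours 5, 7 and 8. The groups did not overlap, and knockout tumour 7 kept the most. The mean was 4.86-fold lower in knockout (41.3 ± 32.5 against 201 ± 43.4 FPKM, SD, n = 3 each), and the fitted change on the log2(FPKM + 1) scale was -2.49 with an SE of 0.51. This did not pass the test across all genes (limma, unadjusted p = 0.00169, adjusted p = 0.987). The value covers the gene as a whole and does not show which exons the remaining reads came from, so what the residual level holds was not tested.

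No gene passed an adjusted p of 0.05 in limma, with 0 of 10359 called (0%). At an unadjusted p under 0.05 there were 446 genes, 234 higher and 212 lower in knockout. With no difference between the groups, a share of 0.05 of all genes would on average pass this threshold, and 446 of 10359 is a smaller share. The smallest adjusted p was 0.0687, for Snora17, a small nucleolar RNA that poly-A libraries capture poorly, at 183, 81.0 and 579 FPKM in wild type and listed at 0 in the 3 knockout tumours. Among genes with a single name that are no small RNAs, the smallest was 0.767, for Rpl12. Every difference below is therefore one of levels in these 6 tumours, and those that passed the adjusted threshold in an alternative fit are named as such. Across all genes, all 3 knockout tumours lay above all 3 wild-type tumours in 3.99% (413 genes) and below them in 5.24% (543 genes), and the median log2 change was -0.02. Counts of list members without overlap are to be read against those shares. With no difference, 3 against 3 tumours would on average separate in a share of 0.1 of genes, both directions together. With fewer tumours more genes separate by construction, but the shares also depended on which tumour was left out. Without wild-type tumour 1 the shares of all genes were 17.5% higher and 13.0% lower, and without knockout tumour 5 they were 12.0% and 11.9%. Leaving out any other tumour gave 5.95% to 6.84% higher and in each case less than 11.9% lower. The number of tumours alone thus does not account for the larger shares, and their cause was not tested. Counts given without wild-type tumour 1 or knockout tumour 5 are to be read against the shares without that tumour.

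**Figure D2:**
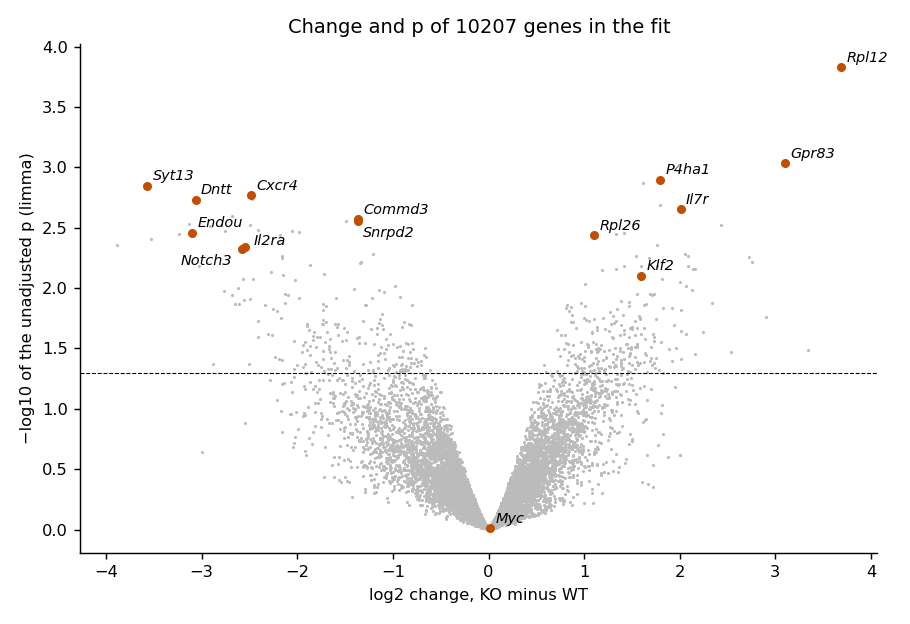
Each point is a gene with a single name (10207 in all), with its log2 change (knockout minus wild type) on the x axis and −log10 of the unadjusted limma p on the y axis, where the dashed line marks 0.05. Of the labelled genes, Rpl12, Gpr83, P4ha1 and Il7r lie highest on the right, Syt13, Cxcr4 and Dntt highest on the left, and Myc sits at no change.

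Of 28 genes of V(D)J recombination and the double-positive thymocyte stage in the comparison (29 in the table), 7 were lower in all 3 knockout tumours than in any wild-type tumour and 0 were higher. Their median log2 change was -0.83. The 7 were Dntt, Endou, Arpp21, Rag1, Cd8b1, Tcf12 and Aqp11, of which the last 3 are named after their values were seen. Dntt, the terminal transferase that adds bases at V(D)J joints, was at 404, 72.1 and 116 FPKM in wild type and 10.6, 21.6 and 21.8 in knockout. Its mean was 10.99-fold lower (log2 change -3.06, SE 0.64, limma adjusted p = 0.987), and its lowest wild-type value was above its highest knockout value. Endou, an endoribonuclease gene, was at 213, 39.3 and 38.2 FPKM in wild type and 3.79, 12.7 and 7.09 in knockout (log2 change -3.10, SE 0.73). Rag1, a subunit of the recombinase that cuts antigen receptor genes, was at 600, 98.2 and 56.6 FPKM in wild type and 25.8, 38.8 and 48.8 in knockout (log2 change -2.01, SE 0.82). Its partner Rag2, picked after its values were seen, was at 50.7, 7.49 and 7.52 against 1.46, 4.66 and 8.21 FPKM and did overlap. Wild-type tumour 1 carried the highest level of each of these genes.

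Of the coreceptor genes that define the double-positive stage, Cd8b1 separated the genotypes and Cd8a and Cd4 did not. Cd8a, a chain of the CD8 coreceptor, was at 452, 88.1 and 73.0 FPKM in wild type and 27.0, 70.8 and 76.3 in knockout, while Cd4 was at 392, 111 and 47.2 against 161, 248 and 187 FPKM. The Cd8a groups overlapped narrowly and those of Cd4 widely. Cd8b1, the other CD8 chain, picked after its values were seen, was at 767, 144 and 127 FPKM in wild type and 76.4, 110 and 89.6 in knockout. Aqp11, which encodes a water channel, was at 139, 33.7 and 21.9 against 7.96, 6.14 and 17.9 FPKM, and Arpp21, which encodes a phosphoprotein of thymocytes and brain, at 96.6, 11.5 and 16.1 against 1.39, 5.92 and 4.05. Both lay lower in every knockout tumour. The count was other without wild-type tumour 1, which had the most T cell marker RNA. Without it, 7 of the 28 members lay below and 8 above, where 13.0% and 17.5% of all genes did so, and the medians of the list ran from -1.23 to -0.44 over the 6 fits that left out 1 tumour.

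The Notch list had 34 members in the comparison (37 in the table), of which 4 lay lower in knockout without overlap (Notch3, Il2ra, Hes1 and Fbxw7) and 3 lay higher (Il7r, Lfng and Numb). The median log2 change was -0.02, as over all genes. Without wild-type tumour 1, 10 were higher (all genes, 17.5%) and 4 lower. Notch3, a Notch receptor that is itself a Notch1 target, was at 59.8, 13.6 and 23.1 FPKM in wild type and 1.54, 6.98 and 3.95 in knockout (log2 change -2.58, SE 0.64). Il2ra, the alpha chain of the IL-2 receptor (CD25) and a marker of double-negative thymocytes, was at 138, 27.8 and 87.0 FPKM in wild type and 6.16, 16.6 and 13.0 in knockout (log2 change -2.55, SE 0.63). Both were lower in all 3 knockout tumours. Ptcra, the invariant chain of the pre-T cell receptor, was at 124, 23.6 and 57.8 FPKM in wild type and 6.98, 7.55 and 25.6 in knockout, and knockout tumour 8 overlapped wild-type tumour 2. Hes1, a transcriptional repressor and a classical Notch target, was at 30.6, 30.0 and 33.3 FPKM in wild type and 28.9, 10.4 and 3.54 in knockout. Its wild-type values were nearly equal, and its knockout values spread from just below them to a small part of them.

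Notch1 itself was at 248, 73.4 and 176 FPKM in wild type and 63.5, 89.1 and 68.6 in knockout, with overlap. How much of this value comes from Notch1-deltaE transcripts was not tested. Dtx1, another direct target, was at 488, 157 and 206 FPKM in wild type and 226, 469 and 310 in knockout, and Myc, a growth regulator that Notch1 switches on, was at 50.6, 110 and 72.7 against 48.5, 80.0 and 107 FPKM. For both genes the groups overlapped over most of their range. Lfng, which adds sugar to Notch receptors and was picked after its values were seen, was at 38.3, 41.4 and 16.3 FPKM in wild type and 64.7, 151 and 111 in knockout (log2 change 1.76, SE 0.47). The Notch list therefore held genes without overlap in opposite directions.

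**Figure D3:**
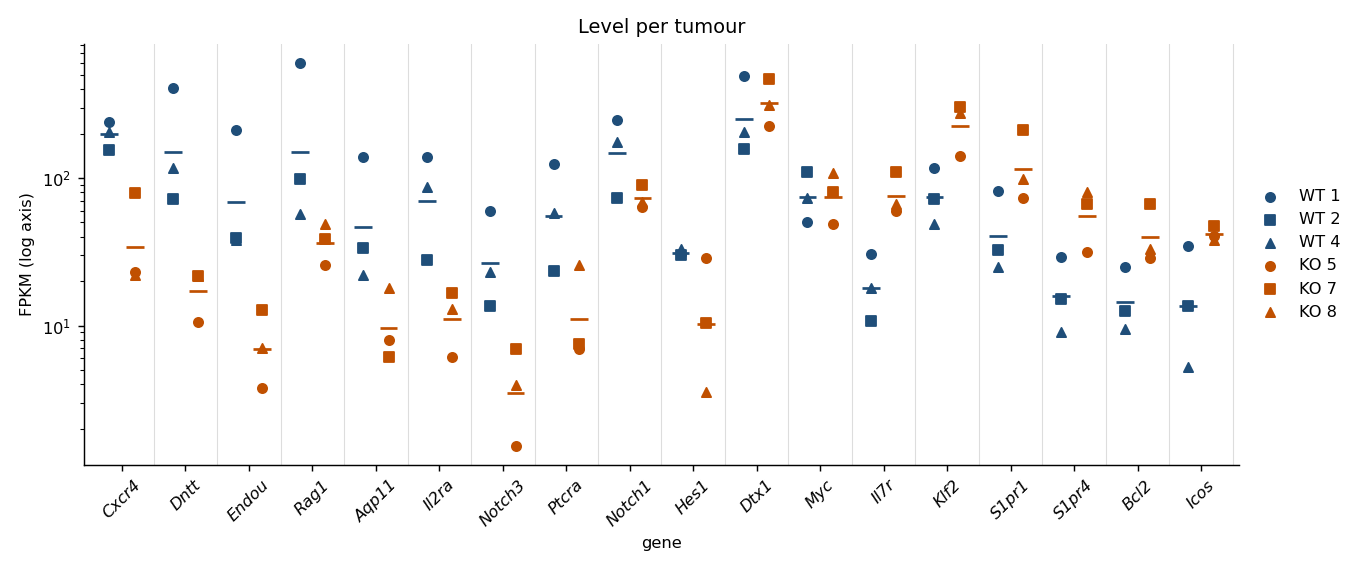
FPKM (log axis) of 18 genes in each tumour, with 1 symbol per tumour (blue, wild type; orange, knockout) and bars at the geometric mean of 3 tumours. Cxcr4, Dntt, Endou, Rag1, Aqp11, Il2ra, Notch3 and Hes1 show no overlap with knockout lower, Il7r, Klf2, S1pr4, Bcl2 and Icos show none with knockout higher, and Ptcra, Notch1, Dtx1, Myc and S1pr1 overlap.

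Of 31 genes of IL-7 and cytokine signalling in the comparison (33 in the table), 6 were higher in knockout without overlap (Il7r, Il6ra, Il10rb, Il27ra, Stat6 and Bcl2) and 1, Il2ra, was lower. Their median log2 change was 0.40. Without wild-type tumour 1, 15 were higher (all genes, 17.5%) and 1 lower. Il7r, the receptor chain that binds IL-7 and supports the survival of immature and resting T cells, was at 30.5, 10.7 and 17.9 FPKM in wild type and 59.6, 109 and 66.7 in knockout. Its mean was 3.99-fold higher (78.6 ± 26.9 against 19.7 ± 10.0 FPKM, SD, n = 3 each; log2 change 2.01, SE 0.43, limma adjusted p = 0.987). Crlf2, outside that list, which pairs with Il7r to form the receptor for TSLP, was at 6.55, 9.12 and 10.3 FPKM in wild type and 19.3, 24.2 and 31.4 in knockout. Il27ra, a receptor chain for IL-27, was at 28.3, 14.1 and 9.06 against 30.4, 55.5 and 46.2 FPKM, with wild-type tumour 1 just under the lowest knockout tumour. Stat6, a transcription factor of the IL-4 pathway picked after its values were seen, was at 39.6, 24.8 and 31.2 against 40.1, 97.9 and 70.7 FPKM. Bcl2, a survival protein induced by IL-7, was at 25.0, 12.7 and 9.52 FPKM in wild type and 28.5, 66.2 and 32.9 in knockout. For Stat6 and Bcl2 too, the gap between the groups was set by wild-type tumour 1 and knockout tumour 5.

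Of 37 genes of homing, adhesion and exit from lymphoid organs in the comparison (43 in the table), 7 were higher in knockout without overlap (Klf2, S1pr4, Ccr2, Cx3cr1, Itga4, Cd69 and Rap1a) and 0 lower. Their median log2 change was 0.77 and ran from 0.47 to 1.13 when each tumour was left out. Without wild-type tumour 1, 24 were higher (all genes, 17.5%), and without knockout tumour 5, 13 were (all genes, 12.0%). Klf2, a transcription factor that turns on S1pr1 in resting T cells, was at 116, 71.9 and 48.6 FPKM in wild type and 140, 302 and 274 in knockout (log2 change 1.60, SE 0.44). S1pr4, a receptor for sphingosine 1-phosphate, was at 29.2, 15.2 and 9.05 FPKM in wild type and 31.8, 67.0 and 80.0 in knockout (log2 change 1.73, SE 0.51). S1pr1, the receptor by which T cells leave the thymus and lymph nodes, was at 81.1, 32.5 and 25.0 against 73.0, 213 and 98.4 FPKM and overlapped through wild-type tumour 1. Rap1a, a small GTPase that activates integrins, differed by less but with little spread, at 40.0, 30.5 and 36.2 FPKM in wild type and 61.1, 55.8 and 59.7 in knockout. Itga4, an integrin chain that binds VCAM-1 and was picked after its values were seen, was at 130, 111 and 102 against 156, 166 and 179 FPKM.

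Other homing receptors overlapped. Ccr7, the receptor that leads T cells to lymph nodes, was at 27.1, 15.0 and 14.2 FPKM in wild type and 62.7, 121 and 18.8 in knockout, where knockout tumour 8 overlapped wild type. Ccr9, the gut- and thymus-homing receptor, was at 76.7, 17.8 and 5.02 against 10.5, 30.4 and 17.1 FPKM and overlapped widely. Cxcl12 and Cxcr7, the ligand and the other receptor of CXCL12, were listed at 0 in all 6 tumours. Of 43 genes of CXCR4 signalling in the comparison, 2 were lower without overlap (Cxcr4 itself and Nedd4, a ubiquitin ligase, at 40.0, 76.4 and 44.7 against 33.6, 27.4 and 22.1 FPKM) and 1 was higher. That one, Mif, encodes a cytokine that can also bind CXCR4 and was at 22.4, 26.6 and 13.9 FPKM in wild type and 33.6, 55.7 and 85.8 in knockout. Mif has near-identical copies in the mouse genome, so its value is uncertain. With wild-type tumour 1 left out, 24 of the 43 were higher (all genes, 17.5%) and 3 lower, and without knockout tumour 5, 6 were higher (all genes, 12.0%) and 2 lower.

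Markers of NK and cytotoxic cells lay in the same direction as the homing and cytokine genes. Of 21 in the comparison (23 in the table), 5 were higher without overlap, 0 lower, and the median log2 change was 1.04. Without wild-type tumour 1, 15 were higher (all genes, 17.5%), and without knockout tumour 5, 13 were (all genes, 12.0%). Summed, the list ranged from 823 to 3926 FPKM in wild type against 1860 to 5994 in knockout, with overlap (exact permutation p = 0.4). The defining NK gene Ncr1 was detected in every tumour, at 19.1, 2.52 and 1.18 FPKM in wild type and 10.98, 7.36 and 15.4 in knockout. Klrc1, an NK receptor chain picked after its values were seen, was at 7.83, 3.43 and 1.27 against 12.8, 28.0 and 63.2 FPKM. The sum of 18 B cell markers ranged from 68.9 to 202 FPKM in wild type against 148 to 254 in knockout (exact permutation p = 0.2). Of 7 in the comparison, 2 were higher without overlap and 0 lower, and all 7 changes were positive (median log2 change 0.87). Without wild-type tumour 1, 5 were higher (all genes, 17.5%), and without knockout tumour 5, 3 were (all genes, 12.0%). The defining B cell gene Ms4a1 stayed under 3 FPKM in every tumour and was listed at 0 in wild-type tumour 4 and knockout tumour 8. The part of other immune cells in the levels of Klf2, Il7r, S1pr4 and the other higher genes was not tested.

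Of 51 genes of the T cell receptor complex, its coreceptors and kinases, 1 lay higher (Icos) and 1 lower (Cd8b1) without overlap, with a median log2 change of 0.46. Icos, a costimulatory receptor, was at 34.9, 13.5 and 5.21 FPKM in wild type and 40.3, 47.4 and 38.0 in knockout. When wild-type tumour 1 was left out, 37 of the 51 were higher (all genes, 17.5%) and 1 lower (all genes, 13.0%). Without that tumour the summed T cell markers also lay higher in knockout, at 2049 and 2567 against 2609, 5828 and 4239 FPKM. Of the 16 markers, 10 were then higher and 0 lower. Without knockout tumour 5, 4 of the 51 were higher (all genes, 12.0%). Leaving out any other tumour gave 1 or 2 higher (all genes, 5.95% to 6.84%). Of 47 immediate early and NF-kB genes, 7 were higher and 0 lower, with a median of 0.48, and without wild-type tumour 1, 31 were higher (all genes, 17.5%), and without knockout tumour 5, 16 (all genes, 12.0%). Jund, an AP-1 subunit, was at 55.0, 41.0 and 40.8 against 78.8, 80.1 and 81.9 FPKM, and its knockout values were nearly equal. Traf1, an NF-kB target, was at 11.4, 5.05 and 2.80 against 12.1, 21.2 and 20.1 FPKM, and Cd69, an early activation receptor that opposes S1pr1 and was picked after its values were seen, at 22.2, 9.47 and 2.38 against 23.7, 36.7 and 29.3 FPKM. Egr3, a transcription factor induced by the T cell receptor, was at 17.3, 5.15 and 2.00 against 16.0, 27.3 and 72.6 FPKM and overlapped. The Gimap family of lymphocyte GTPases had 8 members, and 1, Gimap3, did not overlap (145.0, 65.4 and 44.6 against 145.2, 340 and 231 FPKM, a gap of less than 1 FPKM between the groups). In the 5 tumours other than wild-type tumour 1, 7 of the 8 were higher (all genes, 17.5%), and without knockout tumour 5, 3 were (all genes, 12.0%).

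Because the tumours held unequal amounts of T cell RNA, levels were also given per 1000 FPKM of summed T cell markers, a view chosen after the values were seen. On this scale 17 of the 28 recombination and double-positive genes were lower without overlap and 4 were higher, where 3.28% and 3.36% of all genes did so. Themis stands in both the marker list and this list. Of the 16 markers themselves, 4 were higher (25.0%) and 3 lower (18.8%) without overlap on this scale. The markers thus did not keep the same proportions in the genotypes, and levels on this scale depend on that mix as well. Dntt was at 51.2, 35.2 and 45.3 in wild type and 4.05, 3.70 and 5.13 in knockout. Its values lie closer together within each genotype on this scale than in FPKM. Endou was at 26.9, 19.2 and 14.9 against 1.45, 2.18 and 1.67, Notch3 at 7.58, 6.65 and 8.98 against 0.590, 1.20 and 0.933, and Il2ra at 17.5, 13.6 and 33.9 against 2.36, 2.86 and 3.07. Each of these groups lay far apart. Cxcr4 was at 30.6, 75.7 and 80.3 in wild type and 8.89, 13.5 and 5.17 in knockout.

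Some genes that overlapped in FPKM did not overlap per T cell marker. Ptcra was at 15.7, 11.5 and 22.5 in wild type and 2.67, 1.30 and 6.05 in knockout, Cd8a at 57.3, 43.0 and 28.4 against 10.4, 12.2 and 18.0, and Notch1 at 31.4, 35.8 and 68.6 against 24.4, 15.3 and 16.2. Knockout was lower in each. Dtx1, by contrast, was at 61.8, 76.4 and 80.1 in wild type and 86.8, 80.5 and 73.1 in knockout, level across the 6 tumours. Hes1, apart in FPKM, overlapped on this scale, at 3.87, 14.7 and 13.0 against 11.1, 1.78 and 0.835. Il7r was at 3.87, 5.22 and 6.97 against 22.8, 18.8 and 15.8, Klf2 at 14.7, 35.1 and 18.9 against 53.7, 51.8 and 64.5, and S1pr1 at 10.3, 15.8 and 9.74 against 28.0, 36.5 and 23.2. Each was higher in every knockout tumour, and S1pr1 among them overlapped in FPKM. Of the homing list 8 were higher and 1 lower on this scale, of the NK and cytotoxic list 4 and 0, of the cytokine list 4 and 2, and of the Notch list 3 and 5. Of the T cell receptor list 13 were higher and 5 lower, of the immediate early and NF-kB list 9 and 1, of the CXCR4 signalling list 4 and 3, of the FoxO list 6 and 1, and of the Gimap family 5 and 0. Adding the T cell markers to the limma fit as a covariate called 2 genes, both lower in knockout and both in the recombination and double-positive list, namely Dntt (log2 change -3.30, SE 0.23, adjusted p = 0.0240) and Endou (-3.38, SE 0.23, adjusted p = 0.0240). Neither gene was called in any other fit that was run, where the adjusted p of Endou ran down to 0.0915 and that of Dntt to 0.131, both with the haemoglobin share as covariate.

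**Figure D4:**
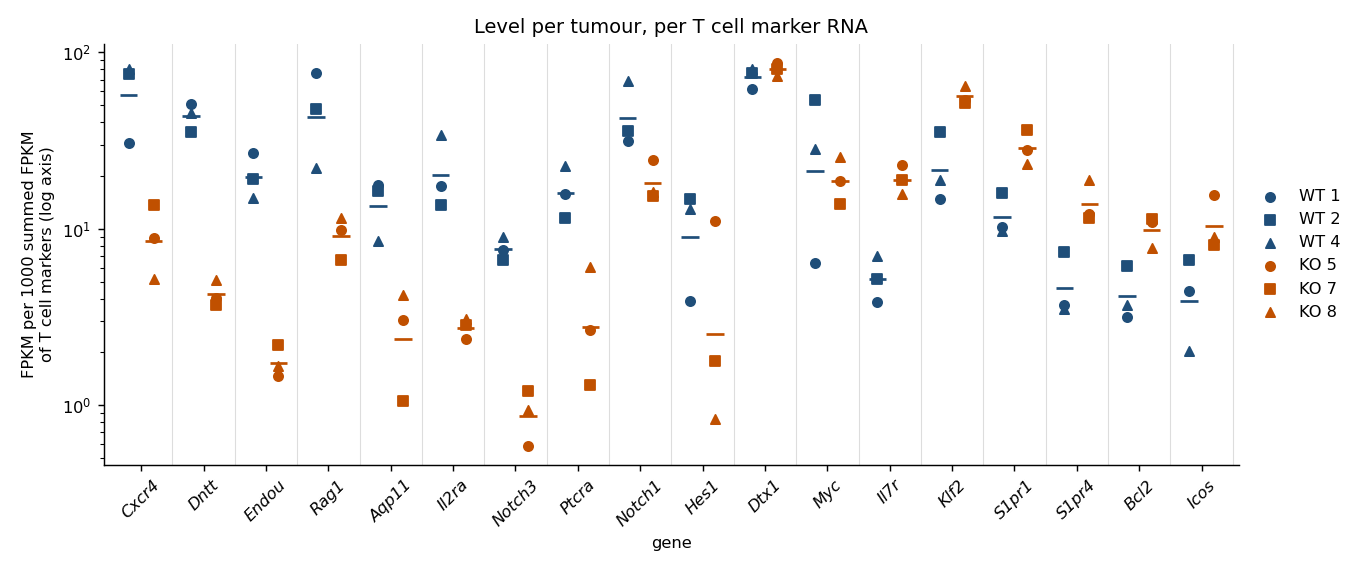
The same 18 genes per 1000 FPKM of summed T cell markers (log axis), with 1 symbol per tumour and bars at the geometric mean of 3 tumours. Dntt, Endou, Notch3 and Il2ra lie lower in the knockout tumours and Il7r, Klf2, S1pr1 and Bcl2 higher, without overlap, and Dtx1 is level.

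Cell cycle genes varied between tumours of the same genotype. The median member of the G2/M list lay 0.53, 1.37 and 1.13 above the mean of its gene (log2) in wild-type tumours 2 and 4 and knockout tumour 5, and 1.21, 1.07 and 0.46 below it in wild-type tumour 1 and knockout tumours 7 and 8. Of 62 G2/M genes, 0 separated the genotypes (7 were lower without wild-type tumour 1, where 13.0% of all genes were), and the median change of -0.35 ran from -1.06 to 0.23 when each tumour was left out. Of 59 G1/S genes, 1 was higher and 1, Cdk6, lower, and the median of -0.45 ran from -1.02 to -0.096 when each tumour was left out. When wild-type tumour 1 was left out, 23 of the 59 were lower (all genes, 13.0%), and without knockout tumour 5, 16 were (all genes, 11.9%). The higher one was Ccnd2, cyclin D2, at 60.5, 37.5 and 27.1 FPKM in wild type and 90.6, 195 and 100.4 in knockout (log2 change 1.59, SE 0.42). Cdk4, its kinase partner, was at 119, 266 and 183 against 140, 95.5 and 87.1 FPKM and overlapped. The erythroid list had its highest median deviations (1.96 each) in wild-type tumour 4 and knockout tumour 5, which also had the highest G2/M values, and the part of erythroid precursors in the cell cycle levels was not tested. Of 61 Myc targets of growth and nucleolus, 2 were higher and 3 lower without overlap, and without wild-type tumour 1, 4 and 17.

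Of 25 leukaemia-initiating and early progenitor genes, 2 were higher without overlap and 1 lower, and without wild-type tumour 1, 5 and 2. Id2, which blocks E proteins, was at 122, 63.5 and 50.5 FPKM in wild type and 128, 209 and 209 in knockout, and Zbtb16 (PLZF), a factor of innate-like T cells, at 0.729, 0.695 and 0.384 against 1.98, 5.30 and 1.98 FPKM. Both were higher in every knockout tumour. Tcf12 (HEB), an E protein of the double-positive stage counted above with the recombination genes, was at 217, 67.8 and 77.1 against 40.9, 62.3 and 65.1 FPKM. Of 43 p53 target and apoptosis genes, 2 were higher and 3 lower, and without wild-type tumour 1, 9 and 4. Bid, which promotes apoptosis, was at 26.3, 29.7 and 18.0 FPKM in wild type and 13.5, 13.3 and 6.80 in knockout. Cdkn2a, the gene of the tumour suppressors p16Ink4a and p19Arf, was at 7.61, 1.62 and 22.9 FPKM in wild type and listed at 0 in all 3 knockout tumours. A listed 0 does not show a deletion, and none was looked for.

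Of 36 cholesterol and fatty acid genes, 5 were lower and 0 higher, with a median of -0.07. Scd2, a stearoyl-CoA desaturase, was at 107, 53.1 and 60.3 FPKM in wild type and 20.9, 25.9 and 26.5 in knockout (log2 change -1.49, SE 0.34), and Srebf1, a transcription factor of lipid synthesis, at 31.5, 30.9 and 23.5 against 19.2, 20.4 and 15.7 FPKM. Of 37 proteasome subunits 4 were lower and 0 higher, among them Psma6 at 176, 158 and 167 against 106, 118 and 91.3 FPKM. That gene encodes an alpha subunit of the catalytic core. The 72 mitochondrial ribosomal proteins gave 10 lower and 0 higher, with Mrpl21 at 9.33, 13.6 and 5.47 against 2.08, 0.203 and 0 FPKM. Knockout tumour 8 listed 13231 lines of the table at 0 against 10423 to 11433 in the other tumours, and Mrpl21 is among those lines. Of 22 MHC class I genes, 5 were higher and 0 lower, with H2-K1 at 588, 580 and 368 FPKM in wild type and 750, 1267 and 1298 in knockout. Class I genes resemble each other closely, so reads could be split among them. Heat shock proteins gave 6 higher and 1 lower of 26, with Hsph1, a co-chaperone of Hsp70, at 28.2, 80.0 and 74.5 against 116, 147 and 148 FPKM. Per T cell marker, 0 members of the class I and heat shock lists lay apart, and 1 lay lower in each of the lipid, proteasome and mitochondrial ribosome lists. Without wild-type tumour 1, 20 of the 37 proteasome subunits and 28 of the 72 mitochondrial ribosomal proteins were lower (all genes, 13.0%), 6 heat shock genes were higher and 6 lower, 5 lipid genes were higher and 6 lower, and 8 class I genes were higher and 1 lower.

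Cytosolic ribosomal proteins had the most separated members of any list, 17 higher and 3 lower of 64, with a median log2 change of 0.29. Rpl12 was at 1.78, 0.814 and 0.311 FPKM in wild type and 12.6, 30.6 and 31.9 in knockout (log2 change 3.69, SE 0.51), and Rps25 at 0.202, 2.21 and 1.12 against 6.56, 8.32 and 17.2 FPKM. Higher ones included Rps21, at 162, 287 and 223 against 549, 755 and 1046 FPKM, Rpl13, at 54.8, 56.8 and 46.0 against 123, 146 and 237, and Rpl26, at 134, 114 and 122 against 227, 295 and 278. These genes have near-identical pseudogene copies among which the counting could split reads, so their values are uncertain, the more so for Rpl12 and Rps25 at a few FPKM. Per T cell marker, 3 of the 64 were higher without overlap and 0 lower, fewer than in FPKM. Without wild-type tumour 1, 18 were higher (all genes, 17.5%) and 7 lower (all genes, 13.0%). Without knockout tumour 5, 26 were higher (all genes, 12.0%) and 5 lower. For the remaining lists, higher and lower without overlap were 6 and 1 of 62 interferon response genes (1 and 0 per T cell marker), 2 and 5 of 70 genes of oxidative phosphorylation, and 1 and 0 of 35 of glycolysis and hypoxia. They were 0 and 2 of 48 amino acid and ER stress genes, 2 and 2 of 41 FoxO and PI3K-Akt genes, 1 and 1 of 33 epigenetic regulators, 0 and 1 of 59 histone genes, and 0 and 0 of 16 nuclear noncoding RNAs. When wild-type tumour 1 was left out, 26 oxidative phosphorylation genes and 14 amino acid and ER stress genes were lower (all genes, 13.0%), and 18 FoxO, 19 interferon response, 11 epigenetic and 6 glycolysis genes were higher (all genes, 17.5%).

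**Figure D5:**
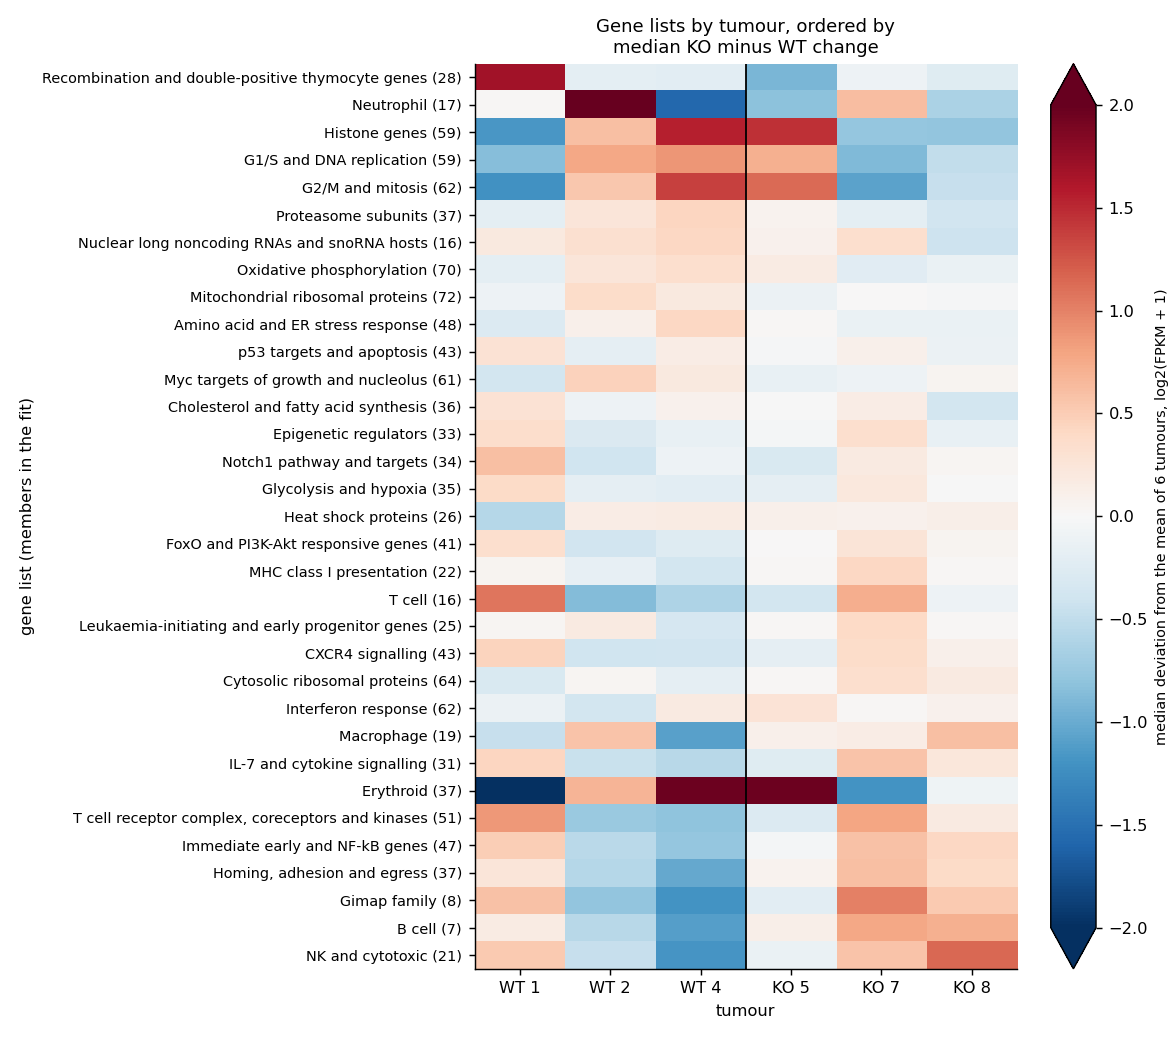
Median deviation of the members of each gene list from the mean of each gene over 6 tumours, in log2(FPKM + 1), by tumour (columns) and list (rows, with the number of members in the comparison), where red is above and blue below the mean and colours saturate at 2. The top row (recombination and double-positive genes) is highest in wild-type tumour 1 and lowest in knockout tumour 5, and the G1/S, G2/M and histone rows are high in wild-type tumours 2 and 4 and knockout tumour 5.

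The genes of smallest unadjusted p without overlap included several outside these lists and P4ha1, the higher member of the glycolysis and hypoxia list. Gpr83, a G protein-coupled receptor, was listed at 0 in wild-type tumour 1, at 1.21 and 0.790 FPKM in tumours 2 and 4, and at 12.7, 23.1 and 6.46 in knockout (log2 change 3.09, SE 0.58). P4ha1, a prolyl hydroxylase of collagen, was at 3.53, 4.63 and 3.86 FPKM in wild type and 11.9, 19.8 and 18.3 in knockout (log2 change 1.79, SE 0.35), with little spread in either group. Flt3l, the ligand of the receptor Flt3, was at 10.6, 9.86 and 7.43 against 20.6, 31.0 and 23.3 FPKM. On the lower side, Syt13, a synaptotagmin, was at 31.9, 6.57 and 32.3 FPKM in wild type and 0.694, 1.94 and 0 in knockout (log2 change -3.57, SE 0.71). Commd3 was at 73.9, 66.4 and 71.1 against 35.4, 28.8 and 18.7 FPKM, and Snrpd2, a core protein of the spliceosome, at 84.2, 99.9 and 82.6 against 48.7, 29.3 and 26.9. For both genes the wild-type values were close together and all above knockout. Fam183b (7.79, 4.27 and 2.71 FPKM) and AA467197 (9.76, 3.78 and 2.47) were detected in every wild-type tumour and listed at 0 in every knockout tumour, and 2310007L24Rik was at 22.5, 2.62 and 8.75 against 0.234, 0 and 0 FPKM. Ada, adenosine deaminase, picked after its values were seen, was at 29.6, 7.39 and 14.7 against 2.38, 1.81 and 0 FPKM. Igfbp4, an IGF-binding protein that also stands in the stroma marker list and was picked in the same way, was at 17.0, 12.9 and 4.63 against 76.5, 186 and 29.2 FPKM.

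In the ex vivo samples, which were normalized in a separate table, Cxcr4 was at 183, 112 and 141 FPKM with vehicle and 183, 136 and 212 with AMD3100. Il2ra was at 344, 235 and 141 with vehicle and 474, 398 and 269 with AMD3100, and Klf2 at 14.0, 17.4 and 0.114 against 33.7, 41.5 and 0.928 FPKM. The treatment groups overlapped for each of these 3 genes, but not for every gene named above. Bcl2 was at 26.9, 22.2 and 3.89 FPKM with vehicle and 57.0, 44.0 and 41.5 with AMD3100, higher without overlap. Scd2 was at 324, 336 and 365 against 185, 238 and 266 FPKM, lower without overlap. Gpr83 was at 36.8, 40.4 and 23.4 against 12.5, 16.5 and 13.8 FPKM, also lower without overlap. Hsph1, at 39.6, 49.8 and 48.9 against 35.6, 37.5 and 32.9 FPKM, was lower without overlap too. Bcl2 and Scd2 lay in the direction of the knockout tumours, and Gpr83 and Hsph1 in the opposite one. Set side by side by number, Il2ra and Klf2 were higher with AMD3100 in each of the 3 numbers, and both Klf2 values of number 3 were far below the others. These genes are examples. No test and no count over all genes was made here, nor any further comparison with the tumours.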

How the data were processed

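Poly-A RNA of 12 mouse T-ALL samples was sequenced as strand-specific 50-base single reads, per the labels' protocols. Tools were CASAVA and TopHat and the build mm9, per the submitters' processing notes, while the program that gave the FPKM is not given in the sources used here. The authors deposited FPKM in 2 tables of 6 samples, and read depth is unknown. Chromosomes came from a RefSeq table (GRCm38.p6) matched by symbol (21328 lines) or synonym (1720), leaving 126 unmatched and 22 on several chromosomes, and no mm9 annotation was used. Autosomal lines with a mean of at least 1 FPKM were tested as log2(FPKM + 1) in R 4.3.3 by limma 3.58.1, two-sided, with a mean-variance trend and Benjamini-Hochberg adjustment (threshold 0.05), unpaired, after a check on simulated data. A pseudocount of 1 understates changes of low genes.

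Named genes were a set chosen by role (1 of which is not reported here), the 10 smallest p in each direction without overlap, and the 3 smallest p of each list, and others are said to be picked after their values were seen, as were members named only for not overlapping. The gene lists, marker lists and the comparison itself were chosen with earlier results of these data known, and lists are described by counts and medians without a test. Alternatives changed the pseudocount, filter, scaling, variance model, sample weights, covariates and entries, or left out each tumour. Scaling to T cell markers and counts without each tumour were added after seeing the data.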

Additional observations from a re-analysis of the deposited data

How the results depend on the processing

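No paired analysis was possible because the wild-type and knockout tumours share no replicate numbers. The count of genes called by limma was 0 in the fit reported. It was 1, the lower gene Snora17, with a pseudocount of 0.1 or 0.5, with quantile normalization, after rescaling to summed FPKM without haemoglobin genes, with the haemoglobin share as covariate and at an adjusted p under 0.10. It was 2, both lower (Dntt and Endou), with T cell markers as covariate. With all entries it was 4, of which 2 were higher (Ddx3y and Eif2s3y) and 2 lower (Xist and Snora17). Leaving out each tumour gave 0 to 2 called, all lower and all small nucleolar RNAs, with Snora68 called without wild-type tumour 1 and Snora17 and Snord32a without wild-type tumour 4. The count at an unadjusted p under 0.05 was 446. It was 1401 with array weights, 1157 with the haemoglobin share as covariate, 850 with T cell markers as covariate and 250 when scaled to T cell markers, and it ran from 247 (without wild-type tumour 4) to 931 (without wild-type tumour 1) when each tumour was left out. The cause was not tested.

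The Cxcr4 change was negative in every fit run, from -3.08 to -2.03, with adjusted p from 0.143 to 1. Those of Il7r and Klf2 were positive and those of Dntt, Endou, Rag1, Il2ra and Notch3 negative in every fit run. Myc and Cd4 reversed. Myc, 0.01 in the fit reported, was at -0.11 rescaled without haemoglobin genes, -0.38 with array weights and -0.20 scaled to T cell markers, and ran from -0.26 to 0.32 when each tumour was left out. Cd4, at 0.61, ran from -0.093 (without wild-type tumour 4) to 1.42 when each tumour was left out and was positive in all other fits. The median log2 change of all genes moved from -0.02 to -0.14 when rescaled without haemoglobin genes and to -0.23 when scaled to T cell markers. Read depth is unknown and 3 tumours per genotype limit the precision.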
